A study of Macaca fascicularis with 2 samples.

Results

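The ribosomal protein genes described here are all rows of the count table whose name starts with RPL or RPS and a digit, without the RPS6K kinase genes. The table holds 61 names of that pattern, 10 of them RPS6K, which leaves 51 members among 18446 genes, 26 named RPL and 25 named RPS. RefSeq lists 82 protein-coding names of the same pattern for this species, of which these 51 matched and the other 31 were not analysed here. The members held 18196557 of 148824177 unique molecular identifiers (UMIs, counts of tagged transcript molecules), a share of 12.23%. RPS19BP1 is a member by name only, since it encodes a protein that binds RPS19 and is no part of the ribosome.

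The cells came from whole ovaries of female fetuses of Macaca fascicularis with no treatment or genetic change in the labels, 1 fetus at embryonic day 84 (E84) and 1 at E116, and both ovaries of a fetus were dissociated together into 1 library. The deposited table pools 20967 cells. Of their barcodes 10621 carry the suffix 1 and 10346 the suffix 2, with medians of 3130 and 4555.5 UMIs, and no source ties a suffix to a fetus. The cells were treated as a single sample without a comparison of stages, and the suffix, called the ending here, was used as a batch. Stage, animal and library preparation may all differ between the endings. There are no replicates, so no test was made, and every interval is an exact 95% interval that covers counting error only.

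Ribosomes are built from a large and a small subunit, whose proteins carry the prefixes RPL and RPS. Their mRNAs are among the most abundant of most cells and share a terminal oligopyrimidine (TOP) start, which ties their translation to growth signals. A few members have a second copy elsewhere in the genome with a restricted pattern of use, such as RPL39L, known from male germ cells, and RPL3L, known from striated muscle. In the fetal ovary, germ cells pass from mitotic divisions through a response to retinoic acid (RA) and meiotic prophase to oogenesis.

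Cells were clustered with the members kept out of the clustering genes, and the clusters were named from marker lists, so "like" refers to those markers. Germ cell-like cells numbered 6295, granulosa-like 4049, stroma-like 4566, ovarian surface epithelium-like 1259, endothelial-like 544, immune-like (macrophage and lymphocyte lists together) 247, pericyte-like 140 and erythroid-like 741. The 3 clusters with 1778, 817 and 531 cells stayed unnamed. Germ cell-like cells fell into 4 steps, given throughout in the order of development: 252 mitotic-like, then 1456 RA-responsive-like, then 1330 meiotic-like and last 784 oogenesis-like cells, and 2473 stayed unnamed. The steps were named from marker lists, so a high sum in the step of the same name was built in and does not test the name. The mitotic list summed to 1107 CPM (counts of a gene per 1000000 UMIs of the group) in mitotic-like cells and to at most 157.1 CPM in the other 3 steps. The meiotic list summed to 4330 CPM in meiotic-like cells and to at most 602.9 CPM elsewhere among the steps. The stroma list was low in the steps, at 201.6 to 402.9 CPM against 23330 CPM in stroma-like cells. The macrophage list reached 349.0 CPM and the endothelial list 729.0 CPM in oogenesis-like cells, and the other steps had no more than 38.53 and 187.3 CPM. The erythroid list summed to 1447, 826.4, 1717 and 285.6 CPM over the steps. It stood at 470500 CPM in erythroid-like cells and at 341.3 to 4597 CPM in the other classes. The part of RNA from other cell types in the results was not tested. The endings are uneven across the steps: mitotic-like cells had 249 in ending 1 and 3 in ending 2, RA-responsive-like 1176 and 280, meiotic-like 1070 and 260, and oogenesis-like 76 and 708.

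Ribosomal protein transcripts took the largest share of UMIs in ovarian surface epithelium-like (15.72%) and stroma-like cells (15.14%). Immune-like cells stood at 14.34%, pericyte-like at 13.26%, granulosa-like at 13.21% and endothelial-like at 13.04%. Germ cell-like cells had 10.45% (10.45 to 10.46), the lowest share of the classes other than erythroid-like cells when all steps were pooled. Among cells with at most 10% mitochondrial UMIs this rank was lost, with 13.67% in germ cell-like (14.54% and 10.68% by ending) and 13.1% in endothelial-like cells. Counting error is small beside the spread among cells, since the middle 80% of germ cell-like cells ran from 5.64% to 14.77% and that of stroma-like cells from 10.38% to 18.57%.

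The size of the gap between germ and somatic cells differed between the barcode endings, where stage, animal and library preparation cannot be told apart. On the log2 scale, the share in germ cell-like cells over that in all 7 somatic classes was -0.39, with -0.13 in barcodes ending in 1 and -0.70 in those ending in 2. Germ cell-like cells had 12.23% in ending 1 and 8.63% in ending 2, while stroma-like cells had 15.36% and 15.03% and granulosa-like cells 13.11% and 13.33%. The mix of germ cell steps also differed between the endings, as given above, so the germ cell-like values by ending compare different mixes of cells. Mitochondrial transcripts moved with the same contrast. They took 14.66% of the UMIs of germ cell-like cells (11.08% and 18.33% by ending) and 9.34% of those of the somatic classes, and among cells with at most 10% mitochondrial UMIs the log2 ratio was -0.042 with the same cluster names and 0.037 when these cells were clustered again. Their part in the result was not tested.

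Erythroid-like cells had 1.47% (1.46 to 1.49), the lowest share of all classes. Their 5 most abundant genes, which include the globin genes HBB and HBZ, the mitochondrial gene COX3 and 2 genes without a name in the table, took 87.12% of their UMIs and between 1.66% and 3.12% in the other classes. With these 5 genes left out of the total, the ribosomal protein share of erythroid-like cells was 11.44%, against 10.79% in germ cell-like, 13.28% in endothelial-like and 16.07% in ovarian surface epithelium-like cells.

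Within the germ line the share differed more than among the somatic classes other than erythroid-like cells. Mitotic-like cells had 20.09% (20.04 to 20.13), the highest of any named group. RA-responsive-like cells had 9.74%, meiotic-like cells 7.32% and oogenesis-like cells 9.12%. The share in mitotic-like cells was thus above that of every somatic class, and the share in meiotic-like cells below that of every class but erythroid-like cells.

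The distributions over single cells showed the same order. Among mitotic-like cells the middle 80% lay between 13.18% and 24.59%, and among meiotic-like cells between 5.07% and 11.30%, so these ranges did not overlap. Those of RA-responsive-like (6.70% to 14.22%) and oogenesis-like cells (4.87% to 14.79%) overlapped each other almost wholly. Medians of ribosomal protein UMIs and of all UMIs, each taken separately, were 2405 and 11817.5 in mitotic-like cells. They were 224 and 2747.5 in meiotic-like and 195.5 and 2360.5 in oogenesis-like cells. These counts follow depth, which ran from 1950 to 13973.5 median UMIs among the meiotic-like sub-clusters and from 1152.5 to 17845.5 among the oogenesis-like ones. They are therefore no measure of the amount per cell.

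**Figure D1:**
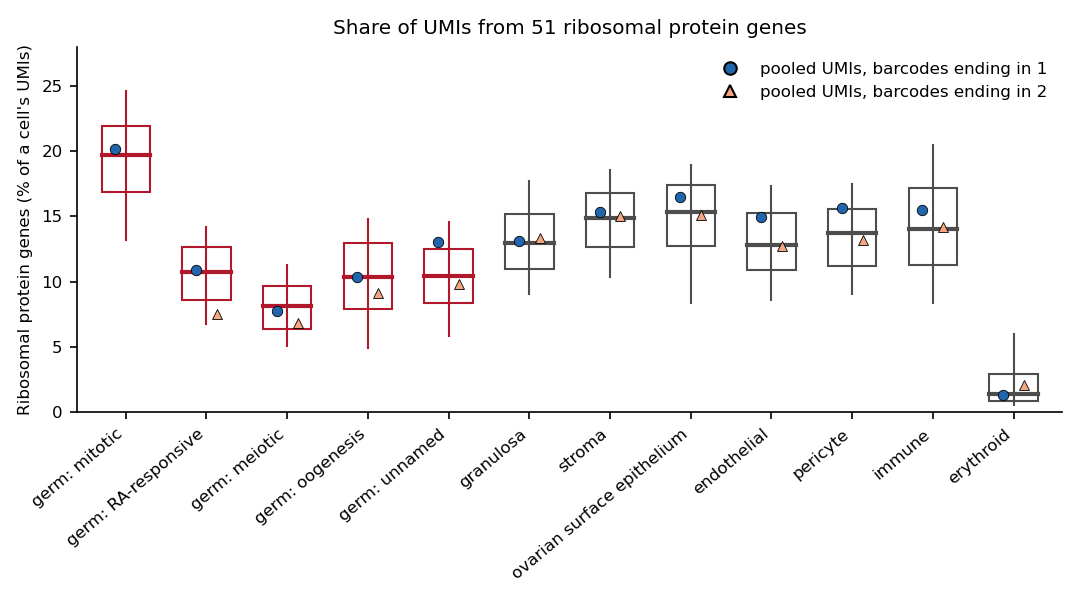
Share of each cell's UMIs that came from the 51 ribosomal protein genes (vertical axis, percent) in the germ cell steps (red) and somatic classes (grey); boxes run from the lower to the upper quartile of the cells with the median as a thick line, whiskers the 10th to 90th percentile, and symbols the pooled share in barcodes ending in 1 (circle) and in 2 (triangle), where at least 10 cells have that ending. Mitotic-like cells lie highest (pooled 20.09%), meiotic-like cells lowest among the germ cell steps (7.32%), and erythroid-like cells lowest of all (1.47%).

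Depth, batch and mitochondrial content each differ among the steps, and the order of mitotic-like above the others held where it could be read within them. In barcodes ending in 1 the shares over the 4 steps were 20.15%, 10.90%, 7.74% and 10.34%. In barcodes ending in 2 the last 3 were 7.52%, 6.81% and 9.08%, so the order of RA-responsive-like and oogenesis-like cells turned between the endings, and mitotic-like cells, with 3 cells, give no value. Mitochondrial genes took 7.42%, 12.91%, 13.64% and 20.52% of the UMIs in the 4 steps. With these genes left out of the total, the shares were 21.70%, 11.19%, 8.48% and 11.48%.

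Mitotic-like cells also had the most UMIs, with 69.44% of them over 3000 detected genes against 42.58%, 26.47% and 27.68% in the next 3 steps. Among cells over 3000 genes the shares were 20.31% in mitotic-like, 9.49% in RA-responsive-like, 6.92% in meiotic-like and 9.20% in oogenesis-like cells. From the cells with 200 to 1000 genes to those over 3000, the share was lower in the larger cells of the RA-responsive-like (12.45% and 9.49%) and meiotic-like steps (9.27% and 6.92%). Granulosa-like cells moved little over the same bins, from 13.47% to 13.01%, and stroma-like cells stood at 12.13% in the smallest cells and at 15.12% to 15.35% in the others.

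**Figure D2:**
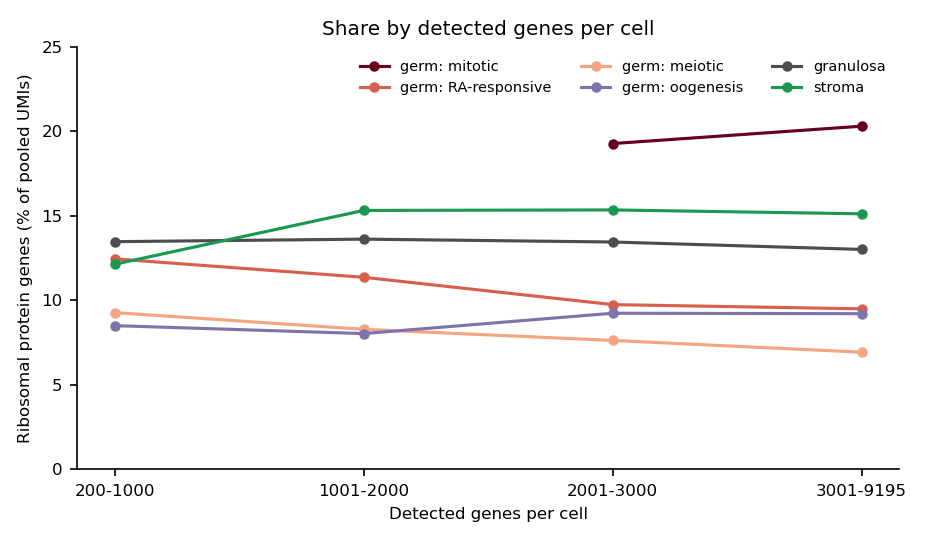
Pooled share of UMIs from ribosomal protein genes (vertical axis, percent) against the number of detected genes per cell (horizontal axis, 4 bins) for the germ cell steps and for granulosa-like and stroma-like cells; points rest on at least 20 cells. The line of mitotic-like cells (19.28% and 20.31%) stays above the others, and those of RA-responsive-like and meiotic-like cells slope down.

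The sub-clusters behind the steps carried the same pattern with some spread. Of the 3 sub-clusters named RA-responsive-like, the shares were 11.67%, 10.52% and 7.375%, the last with 193 of its 196 cells in ending 2. The 3 meiotic-like ones had 8.36%, 6.97% and 7.12%, and the 2 oogenesis-like ones 7.39% and 9.28%, the former at 39.68% mitochondrial UMIs. The mitotic-like cells form 1 sub-cluster, and when the 8% of cells with the highest doublet scores were removed before clustering, the cluster named mitotic-like had 442 cells and a share of 16.86%.

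The high share of mitotic-like cells was spread over most members. Of the 49 members with at least 50 UMIs in each step, 41 had their highest CPM in mitotic-like cells (39 within barcodes ending in 1) and 28 their lowest in meiotic-like cells (33 within ending 1). Among 6133 other genes counted in the same way, 21.4% were highest in mitotic-like and 22.6% lowest in meiotic-like cells. The median log2 ratio of mitotic-like to meiotic-like CPM was 1.46 over the members and -0.19 over the other genes, with 35 members at least 2-fold higher against 15.5% of the other genes.

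RPL28, a large subunit protein, stood at 7983, 3323, 1331 and 2637 CPM over the steps (log2 2.58 for mitotic-like over meiotic-like), and RPS14, of the small subunit, at 7620, 2222, 1392 and 1668 CPM. No more than 4 members were lower in mitotic-like than in meiotic-like cells, among them RPS27L, RPL26L1 and RPS19BP1 with log2 ratios of -1.52, -0.70 and -0.27.

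Members with the most UMIs followed the general order with differences of their own. RPS18, the most abundant, stood at 8091, 3977, 3223 and 4675 CPM over the steps. RPL10, a late-joining protein of the large subunit, had 7034, 3055, 1723 and 3956 CPM. RPL13A ran from 4521 to 1494 CPM between mitotic-like and meiotic-like cells, while RPS19 differed less between these steps (5230 and 4106 CPM). RPS19 was lowest in oogenesis-like cells (2598 CPM), but highest there among barcodes ending in 1 (5725 CPM, 76 cells). RPS18 took 5.04% of all member UMIs, RPL10 4.27%, RPS19 3.07% and RPL13A 2.95%. Tags from the 3′ end are not divided by transcript length, so these shares rank UMIs and not the genes' transcript levels.

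To set single members apart from the common movement, each was also expressed as a percentage of the member UMIs of a group. A member was called outlying in a group where this percentage was at least 2 times above or below the median of the other groups, with 50 UMIs observed or expected and a difference of at least 0.5 on the log2 scale in the same direction within each ending that had enough UMIs. On this scale 3 of 50 tested members (6%) were outlying among the 8 cell classes, namely RPL39L, RPL26L1 and RPS19BP1, each higher in germ cell-like cells. Over all 14036 genes tested in the same way, relative to member UMIs, 66.6% were called. Among the germ cell steps 10 of 50 (20%) were outlying, against 80.2% of 11315 genes. On this scale members are set against their own sum, and the other genes against a sum that they are no part of. The scale thus favours a lower rate for members, and these 2 comparisons cannot show that members are steadier than other genes. Relative to all UMIs of a group the counts were 50 of 50 members among the classes (86.7% of all genes), 49 of them lower in erythroid-like cells, where those 5 genes take most of the total, and 36 of 50 among the steps (54.4% of all genes). RPL39L met the limit of 50 UMIs only in germ cell-like cells, where it was high, and had 0 to 6 UMIs in each somatic class. Its call was therefore set by the filter and adds no support to the difference. RPL39L was no longer called with the limit of 3000 genes, with the mitochondrial limit or after thinning, and RPS19BP1 was not called in ending 1 alone or under the mitochondrial limit.

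The mixture of members was steadier in the 4 largest somatic classes apart from erythroid-like cells than across the germ line. Over the granulosa-, stroma-, ovarian surface epithelium- and endothelial-like classes, the highest percentage of a member exceeded its lowest by a median of 0.29 on the log2 scale, and by 0.86 at most (RPS29). Over the 4 germ cell steps the median range was 0.88. The range was larger in the germ cell steps for 45 of 49 members, and 19 of them reached 1 on the log2 scale in the germ line against 0 in these 4 classes. Such ranges were not computed for other genes, here or by ending, so the counts do not show a trait particular to the members. Over all 7 somatic classes, the small ones included, the germ cell range was larger for 36 of 46 members (medians 0.88 and 0.41), and 16 members reached 1 in the germ line and 3 in the somatic classes. These 3 were RPS29 (1.375% in pericyte-like to 3.35% in erythroid-like cells), RPS21 (0.72% to 1.70% in the same classes) and RPL36 (0.82% in pericyte-like to 1.80% in granulosa-like cells). The endings were pooled here, and within each ending the same pairs of classes stood closer. In ending 2 RPS29 took 1.29% and 1.705%, RPS21 0.70% and 1.10%, and RPL36 0.80% and 1.52%. RPS7, a small subunit protein, was the most even, with a range of 0.086 over the steps.

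Part of this range goes with the barcode ending. Within ending 1 the germ cell range was larger for 44 of 46 members (medians 0.71 and 0.24), and within ending 2, with 3 steps, for 37 of 49 (medians 0.54 and 0.32), with 10 and 5 members at 1 or more. Between the 2 endings of the same class or step, the median absolute difference over the members ran from 0.19 in granulosa-like to 0.38 in meiotic-like cells. RPS29 and RPS21, small subunit proteins, differed most: RPS29 took 4.28% of member UMIs in ending 1 and 2.03% in ending 2 of granulosa-like cells, and 3.26% and 1.13% of meiotic-like cells. In all 7 groups compared, both were higher in ending 1, RPS29 by 0.98 to 1.53 and RPS21 by 0.80 to 1.36 on the log2 scale, and 22 members kept 1 direction in all 7 groups. Whether this is stage, animal or library preparation cannot be told apart.

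**Figure D3:**
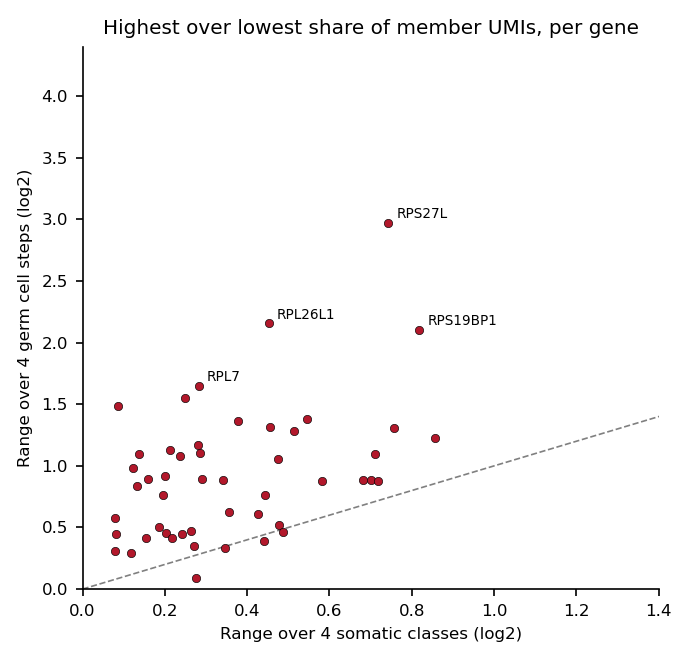
Each point is 1 of 49 member genes; the axes give the log2 ratio of its highest to its lowest percentage of member UMIs over 4 somatic classes (horizontal) and over 4 germ cell steps (vertical), and the dashed line marks equal ranges. Most points (45 of 49) lie above the line, with RPS27L, RPL26L1, RPS19BP1 and RPL7 highest.

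The largest ratios of germ to somatic cells belonged to RPL39L and RPL3L, second copies of ribosomal protein genes. RPL39L, the copy of the gene for RPL39 at the exit tunnel, had 151 of its 162 UMIs in germ cell-like cells. Its level was 2.96 CPM (2.51 to 3.47) there and 0.15 CPM (11 UMIs, 0.073 to 0.26) in the somatic classes without erythroid-like cells, a ratio of 20.1 (10.9 to 41.2). Both endings showed it, with 2.86 and 3.06 CPM in germ cell-like cells against 3 and 8 somatic UMIs. Pericyte-, immune- and erythroid-like cells had no UMI, which allows up to 4.00, 2.76 and 0.80 CPM (the limit that a count of 0 allows, 3 counts).

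Across the steps RPL39L stood at 1.765 CPM (6 UMIs, 0.65 to 3.84) in the mitotic-like, 4.405 (3.36 to 5.67) in the RA-responsive-like, 3.08 (2.01 to 4.51) in the meiotic-like and 2.87 CPM (1.963 to 4.05) in the oogenesis-like step. All 4 intervals overlap and the mitotic-like value rests on 6 UMIs, so no order among the steps is claimed. The overlap does not show that the steps are equal. RPL39L was thus present at a trace level throughout the germ cell steps, at 0.0028% of the member UMIs of germ cell-like cells. The gene RPL39 itself was not analysed here.

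RPL26L1, the copy of the gene for RPL26, was far more abundant and marked the middle of the germ line. It took 0.142% of member UMIs in germ cell-like cells (0.158% and 0.118% by ending) and between 0.034% and 0.087% in the somatic classes, 2.63 times (2.54 to 2.72) the somatic value without erythroid-like cells. Over the steps it stood at 0.058% (0.052 to 0.064), 0.222% (0.214 to 0.231), 0.257% (0.245 to 0.270) and 0.062% (0.058 to 0.067). Mitotic-like and oogenesis-like cells were at the somatic level, and the 2 steps between them well above it on this scale.

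Expressed as CPM, RPL26L1 was again highest in the 2 middle steps, but with the RA-responsive-like step above the meiotic-like one, at 115.6, 216.6, 188.2 and 56.94 CPM in the 4 steps and 77.38 CPM in the somatic classes. By ending, the percentages were 0.229% and 0.204% in RA-responsive-like and 0.291% and 0.211% in meiotic-like cells. Oogenesis-like cells gave 0.114% in ending 1, from 39 UMIs, and 0.061% in ending 2, both under the values of the steps before.

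RPS27L, the copy of the gene for RPS27 and a known target of p53, had another order. It took 0.013% of member UMIs in mitotic-like cells (0.010 to 0.016), 0.026% in the next step (0.023 to 0.028), 0.099% in meiotic-like cells (0.091 to 0.107) and 0.059% in the last step (0.055 to 0.064). Its range of 2.97 on the log2 scale was the largest of all members compared. The CPM were 25.3, 24.89, 72.45 and 54.16, so mitotic-like and RA-responsive-like cells were level on that scale and at the somatic value of 26.16 CPM. In meiotic-like cells both endings were high, with 0.094% and 0.106%, and oogenesis-like cells had 0.091% in ending 1, from 31 UMIs, and 0.058% in ending 2.

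RPL3L, the copy of the gene for RPL3 at the peptidyl transferase centre, had 40 UMIs in all and was too low for the rule on outlying members. Of these, 30 lay in germ cell-like cells, 0.59 CPM (0.40 to 0.84), and 6 in the somatic classes without erythroid-like cells, 0.080 CPM (0.029 to 0.17). RPL3 itself, with 361334 UMIs, differed little on the scale of member UMIs, at 1.93% in germ cell-like and 1.99% in somatic cells. RPL22, an RNA-binding protein of the large subunit, was lower in germ cells: it took 0.70% of their member UMIs (0.68% and 0.71% by ending) and 1.04% in the somatic classes (1.07% and 1.02%), with 0.53% to 0.72% over the steps.

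RPS19BP1, the member by name only, stood at 0.116% of member UMIs in germ cell-like and 0.055% in somatic cells, with 0.101% and 0.137% in germ cell-like cells by ending. Over the steps it was at 0.039%, 0.166%, 0.127% and 0.140%. In CPM these were 77.36, 161.5, 93.28 and 127.6, so the step with the lowest percentage was also the lowest per UMI. Immune-like cells (0.095%) came nearest to germ cells among the somatic classes.

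**Figure D4:**
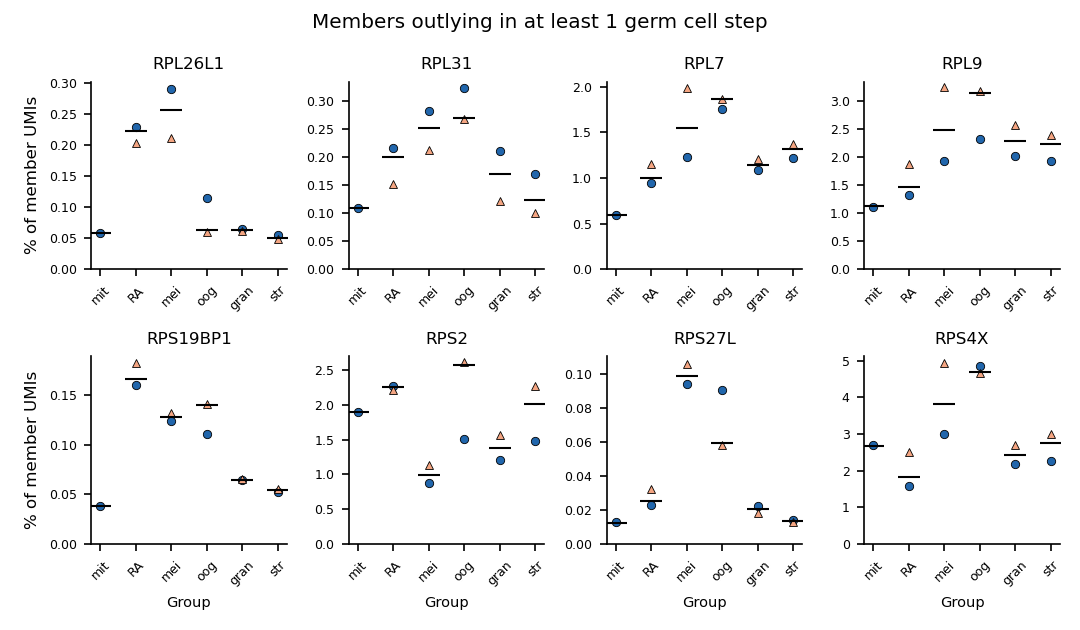
Percentage of member UMIs (vertical axis, from 0) for 8 of the 10 members outlying in at least 1 germ cell step, in mitotic- (mit), RA-responsive- (RA), meiotic- (mei) and oogenesis-like (oog) cells and, for comparison, granulosa-like (gran) and stroma-like (str) cells; black bars are all cells, circles barcodes ending in 1 and triangles barcodes ending in 2, drawn for at least 10 cells. RPL26L1 is high in RA-responsive-like and meiotic-like cells, RPS27L in meiotic-like cells, and RPL7, RPL9 and RPL31 are lower in mitotic-like cells than in meiotic- and oogenesis-like cells.

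Among the large subunit genes, RPL7, RPL9 and RPL31 were outlying for low percentages in mitotic-like cells. RPL7 took 0.59% there and 1.00%, 1.55% and 1.86% in the later steps, against 1.19% in the somatic classes. RPL9 took 1.12%, 1.47%, 2.48% and 3.14% in the same order and 2.27% in somatic cells. RPL31 took 0.109%, 0.200%, 0.253% and 0.270%, with 0.147% in somatic cells. Nearly all mitotic-like cells have ending 1, and within it the log2 values against the median of the other steps were -1.05 for RPL7, -0.80 for RPL9 and -1.38 for RPL31, so RPL9 was not called there. RPL7 and RPL9 were not called with the limit of 3000 genes, RPL31 not after removal of the highest doublet scores or after thinning.

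With both endings pooled, all 3 were at their highest percentage in oogenesis-like cells. In CPM their mitotic-like values did not stand out: RPL7 had 1192, 969.4, 1132 and 1700 CPM over the steps, RPL9 2250, 1427, 1816 and 2866 CPM, and RPL31 218.8, 194.8, 185.3 and 246.1 CPM. These genes thus lacked the high mitotic-like level that most members had. The order of meiotic- and oogenesis-like cells turned with the ending for RPL9, which took 1.94% and 2.33% in ending 1 and 3.24% and 3.17% in ending 2. RPL7 turned in the same way, with 1.23% and 1.75% in ending 1 and 1.99% and 1.87% in ending 2.

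Among the small subunit genes, RPS2, which lines the mRNA entry, was low in meiotic-like cells at 0.99% of member UMIs (0.88% and 1.14% by ending), against 1.90%, 2.26% and 2.57% in the other 3 steps.

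RPS4X was outlying for its low percentage in RA-responsive-like cells, 1.82% (1.57% and 2.52% by ending), against 2.68% in mitotic-like, 3.82% in meiotic-like and 4.68% in oogenesis-like cells. It lay near the 2-fold limit, at a log2 value of -1.07 against the median of the other steps, and was not called in ending 1 alone, with the limit of 3000 genes, after removal of the highest doublet scores or after thinning.

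**Figure D5:**
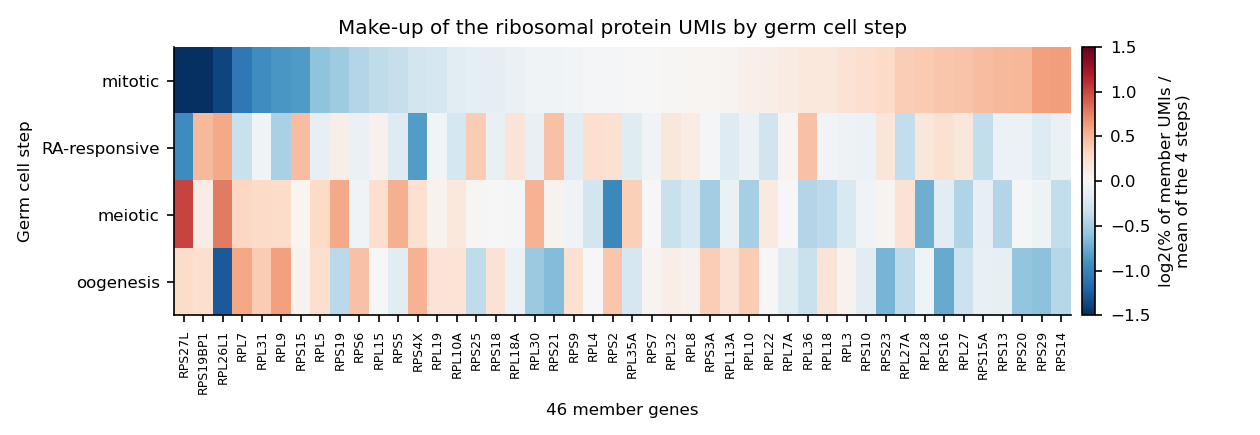
Log2 ratio of each member's percentage of member UMIs in a step to its mean over the 4 germ cell steps (colour, cut at 1.5 in both directions), for 46 members ordered by their value in mitotic-like cells. The left end holds the members low in mitotic-like cells (RPS27L, RPS19BP1, RPL26L1, RPL7, RPL31, RPL9) and the right end those high there, such as RPS14 and RPS29. The endings are pooled, and nearly all mitotic-like cells have ending 1. Against the median of the other steps, RPS29 in mitotic-like cells had a log2 value of 0.81 pooled and 0.30 within ending 1. RPS14 had 1.00 and 0.64.

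The X chromosome carries RPS4X and RPL10 among the members. Together they took 6.35% of member UMIs in germ cell-like cells (6.33 to 6.37; 5.48% and 7.62% by ending) and 7.37% in the somatic classes (7.35 to 7.38; 6.40% and 8.06%). The genes moved apart: RPL10 was lower in germ cell-like cells (3.42% against 4.73% in the somatic classes without erythroid-like cells), and RPS4X slightly higher (2.94% against 2.64%), so the direction of the sum depends on RPL10. The log2 ratio of the sum was -0.21 (-0.22 and -0.082 by ending), that of RPL10 alone -0.47 and that of RPS4X alone 0.15. By ending, RPS4X gave 0.015 and 0.42, so its difference was nearly absent in ending 1, and RPL10 gave -0.37 and -0.48.

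Among the steps the 2 genes together took 6.18%, 4.96%, 6.17% and 9.02%. RPL10 was lowest in meiotic-like cells (2.35%) and RPS4X in RA-responsive-like cells. Somatic classes ran from 6.10% in granulosa-like to 9.12% in pericyte-like cells. In stroma-like cells RPL10 reached 5.98% of member UMIs, the highest of any class.

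UMIs of the large subunit members stood to those of the small subunit members (without RPS19BP1) as 0.725 in germ cell-like and 0.775 in somatic cells. The log2 ratio was -0.095, with -0.096 in ending 1 and -0.044 in ending 2. The 31 RefSeq names not analysed here are missing from these sums, so the values do not rank the whole subunits. The endings differed by more than the classes did: 0.691 and 0.777 in germ cell-like cells, and 0.739 and 0.801 in the somatic classes. The 3 steps up to meiosis were level at 0.705, 0.702 and 0.703. Oogenesis-like cells had 0.799, but 0.638 in ending 1 and 0.806 in ending 2.

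Other genes of the translation machinery show how far the pattern reached. Of 6 ribosomal protein genes outside the naming pattern (RPLP0, RPLP2, RPSA, FAU and RACK1 among them), 5 had their highest CPM in mitotic-like cells. The same held for 21.4% of the 6133 other genes. Together the 6 genes took 2.15% of UMIs in mitotic-like cells and 1.02% to 1.25% in the other steps. RPLP0, of the ribosomal stalk, stood at 3757, 1912, 1274 and 2519 CPM. The group took 1.255% in germ cell-like cells and 1.21% in somatic cells without erythroid-like ones, but in ending 2 alone 1.11% and 1.26%, so its direction turned between the endings.

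Elongation factors and other genes with TOP mRNAs were also mostly highest in mitotic-like cells. Of 12 such genes 9 were highest in mitotic-like and 7 lowest in meiotic-like cells, against 21.4% and 22.6% of the 6133 other genes. Their sums were 1.81%, 0.69%, 0.48% and 0.91% over the steps and 1.85% in the somatic classes without erythroid-like cells (1.56% and 2.06% by ending). Within ending 1, which holds nearly all mitotic-like cells, the mitotic-like sum of 1.81% was above the somatic one. EEF1A1, which brings aminoacyl-tRNA to the ribosome, stood at 6487, 2112, 1357 and 3258 CPM. TPT1 stood at 5244, 1674, 873.5 and 1693 CPM. Germ cell-like cells were above the somatic classes in 2 of the 12 and in 63.8% of the other genes.

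Initiation factors and assembly factors did not share this order. The 12 initiation factors summed to 0.55%, 0.64%, 0.59% and 0.48% over the steps and 0.57% in somatic cells, and 1 of them was highest in mitotic-like cells. Of 31 ribosome biogenesis genes 7 were highest in mitotic-like and 11 in RA-responsive-like cells, where 21.4% and 24.3% of the 6133 other genes were highest. Germ cell-like cells were above somatic cells in 25 of the 31 and in 63.8% of those other genes. The list summed to 0.29%, 0.40%, 0.30% and 0.25% over the steps against 0.21% in somatic cells. Among them DKC1, a pseudouridine synthase, reached 384.9 CPM in the RA-responsive-like step, against 46.43 CPM in somatic cells.

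The 65 genes for mitochondrial ribosomal proteins, which serve translation inside mitochondria, had another order than the cytoplasmic ones. They took 0.63% of UMIs in germ cell-like and 0.41% in somatic cells, with 0.64% and 0.62% in germ cell-like cells by ending, and were lowest among the steps in mitotic-like cells (0.56%) and highest in RA-responsive-like cells (0.73%).

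Clusters without a name were less clear. The 1778 cells of the largest had 6.36% ribosomal protein UMIs at 47.49% mitochondrial UMIs, and 12.11% with the mitochondrial genes left out. The cluster of 817 cells led by CBLN2 and LYPD1 had 11.29%, and that of 531 cells with INHA and AMH among its leading genes 13.54%. Unnamed germ cell-like cells had 11.73%, and the 473 of them with a median of 21400 UMIs had 12.40%, between the mitotic-like and the other steps. The leading genes of these 473 included SOST and KITLG, which also led a granulosa-like cluster, and PTGDS, which also led the ovarian surface epithelium-like one. Their value may thus not be that of germ cells alone, and the part of somatic RNA in it was not tested.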

How the data were processed

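Single-cell RNA libraries of whole fetal ovaries (1 fetus at E84, 1 at E116) were counted by the authors with Cell Ranger 3.0.2 (build Macaca_fascicularis_5.0) before import into Seurat, and the deposited table holds unnormalized whole UMI counts for each gene in each cell. Cell Ranger keeps uniquely mapped reads, so members with near-identical pseudogenes may be undercounted. Seurat is also credited in the submitters' processing notes without a version. Each gene is in at least 3 cells and each cell has at least 200 genes, and 4675 cells exceed the 3000 genes given as a limit in the study's methods. All 20967 cells were used, and 27 barcodes occur with both endings.

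Cells were clustered with Seurat 5.3.0 (R 4.3.3, Matrix 1.6.5) on 2000 variable genes without members, 18 components, 20 neighbours and resolution 0.6, and germ cell-like cells again into at least 11 sub-clusters. A name needed 3 markers, each 1.5-fold higher (10 CPM added) in 5% of cells, more than any other list, and a marker among the 20 leading genes or over 60% of the list. These naming details were set after the clusters were seen, and names rebuilt in this way may differ from the study's. Scrublet called 0 cells in either barcode set, and no cell was removed. Sums over cells are CPM or percentages. Outlying members needed a 2-fold difference, 50 UMIs and 0.5 on the log2 scale within each ending of 20000 member UMIs. The rule for named members took all outlying ones, the 5 most abundant, second copies, X-linked genes and RPS19BP1; some of these are not reported here. Others were named after their values were seen. Members and lists were chosen with earlier results of these data known. Sequences of the members were not used here. Shares and the outlying rule were tested on simulated data. Shares, intervals and figures were made in Python 3.11.15 with scipy 1.17.1, numpy 2.4.6, pandas 2.3.3 and matplotlib 3.10.9, and Scrublet was run in scanpy 1.11.5. Other gene limits, mitochondrial limits, resolutions, thinning to 1000 UMIs (which leaves out 3024 shallower cells), folds and barcode endings were tried as alternatives.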

Additional observations from a re-analysis of the deposited data

How the results depend on the processing

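No result has a test, and intervals cover counting error only, so alternatives often leave them. In the order of ribosomal protein share of germ cell-like over somatic cells (-0.39), share of oogenesis-like over mitotic-like cells (-1.14), large over small subunit UMIs (-0.095) and X-linked share (-0.21), all log2, these values moved as follows. The limit of 3000 genes gave -0.38, -1.29, -0.13 and -0.39, thinning to 1000 UMIs -0.41, -1.03, -0.14 and -0.35, and the mean of single cells -0.36, -0.92, -0.11 and -0.30. The limit of 10% mitochondrial UMIs gave 0.037, a reversed direction, then -0.75, -0.16 and -0.52; it also left no cluster named ovarian surface epithelium-like. With the names of all cells kept, which was added after seeing the data, that limit gave -0.042, -0.74, -0.14 and -0.41. Leaving mitochondrial UMIs out of the total gave -0.30 and -0.92 for the shares. Barcodes ending in 1 gave -0.13, -0.96 and, for the X-linked share, -0.22; those ending in 2 gave -0.70, -0.044 for the subunits and -0.082 for the X-linked share, and no value for mitotic-like cells. Removing the highest doublet scores gave -0.41, -0.90 and an X-linked value of -0.20; resolution 0.4 gave -0.40, -1.15 and -0.25 for the same 3. Resolution 1.0 gave -1.14 and members among the variable genes -1.145 for oogenesis-like over mitotic-like cells. Without RPS4X the X-linked value was -0.47, and without RPL10 it reversed to 0.15. Leaving out erythroid-like cells, also added later, gave a share ratio of -0.46.

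The 3 members outlying among the classes became 6 in barcodes ending in 2 and 8 at 1.5-fold. The 10 outlying among the steps became 6 with the limit of 3000 genes, where RPL7, RPL9 and RPS4X were among those no longer called, 4 in barcodes ending in 2 and 22 at 1.5-fold. Under the other settings the counts stayed within 1.5 times. RPL26L1, RPS27L and RPS2 were called among the steps under all but resolution 1.0, which lost RPS2. The cause of these changes was not tested. No paired analysis was possible because cells of both fetuses are pooled and carry no replicate number.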
